A study of Homo sapiens with 6 samples.

Results

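Glycogen is the branched glucose store of liver and muscle, and 9 genes for its enzymes were followed in a sorafenib-resistant hepatocellular carcinoma (HCC) line. The 9 genes were taken by symbol from the 38637 genes of the expression table. They encode the glycogenins GYG1 and GYG2, the glycogen synthases GYS1 and GYS2, the branching enzyme GBE1, the sugar-supplying enzymes PGM1 and UGP2, and the phosphorylases PYGL and PYGB. The set was chosen from results of the same comparison, in which GYG1 was among the genes that fell, so the differences of its members between groups are a description and not independent evidence. Of the 9 genes, 8 had a mean of at least 1 TPM over all libraries and could be tested, and GYS2 did not.

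The cells, HCCLM3-SR, were derived from the human line HCCLM3 and tolerate sorafenib, a drug that inhibits several kinases. PolyA-Seq libraries (sequencing of polyadenylated RNA) were made from 3 HCCLM3-SR samples transfected with siRNA against cDCBLD2, a circular RNA from the DCBLD2 gene, and from 3 samples transfected with control siRNA. Transfection lasted 3 days, and both groups received 5 µM sorafenib, so no library shows the cells without the drug. All 6 libraries come from 1 line, and the labels do not say that replicates were separate cultures, so p-values measure the spread between these samples, which may be technical.

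In glycogen synthesis, phosphoglucomutase 1 (PGM1) turns glucose-6-phosphate into glucose-1-phosphate, and UDP-glucose pyrophosphorylase 2 (UGP2) turns that into UDP-glucose. A glycogenin attaches the first glucose units to itself and so primes the particle. Glycogen synthase then lengthens the chains and GBE1 branches them. GYS1 is known as the form of muscle and most tissues, and GYS2 as the form of liver. Phosphorylase releases glucose-1-phosphate again, and PYGL and PYGB are known as its liver and brain forms. GYG1 is the widely expressed glycogenin, and GYG2 is known mainly from liver.

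The study addressed a circular RNA that binds miR-345-5p, so the members were searched for matches to the seed of this miRNA. The mature sequence is shown because its seed, bases 2 to 8 in capitals, sets the letters that were searched. It lies at chr14:100307876-100307897 on the plus strand of GRCh38.p14 in RefSeq.

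hsa-miR-345-5p: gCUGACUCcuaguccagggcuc

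The match to this seed is GAGTCAG on the transcript strand. In the longest coding transcript of each gene (GENCODE release 29, GRCh38), 3 of the 9 members held a match in the coding sequence or the 3′ UTR. The PYGL match lay in the coding sequence and those of PYGB and GYG2 in the 3′ UTR. They are printed to show where the seed match (capitals) falls, each with 9 bases on either side.

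PYGL, coding sequence: agataaagtGAGTCAGctgtacatg

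PYGB, 3′ UTR: ccagagtggGAGTCAGgtggagcca

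GYG2, 3′ UTR: atttcaggtGAGTCAGggttggatg

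The PYGL match started at base 2364 of a coding sequence of 2544 bases, the PYGB match at base 278 of a 3′ UTR of 1492 bases, and the GYG2 match at base 1391 of a 3′ UTR of 1605 bases. All 3 coding transcripts of PYGL held the match, but 1 of 2 of PYGB and 2 of 6 of GYG2. None of the 8 coding transcripts of GYG1 held it in either region. Over all tested coding genes, 13.1% of 11772 coding sequences and 9.19% of 11583 3′ UTRs held at least 1 match. Among regions within 20% of the same length, the share was 17.9% of coding sequences for PYGL, 10.4% of 3′ UTRs for PYGB and 11.0% of 3′ UTRs for GYG2. A match is a string of letters and not a site of binding, and the absence of these letters says nothing about the miRNA.

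Values are in TPM (a transcript abundance scaled to the same sum in each library), a unit in which reads are divided by transcript length, so that levels can be compared between genes. Reads recovered from the TPM values ranged from 17492330 to 23063898 per library, as lower bounds. The host gene DCBLD2 measured 58.1, 25.9 and 31.6 TPM in knockdown replicates 1, 2 and 3, and 71.5, 48.5 and 50.7 TPM in control replicates 1, 2 and 3. A value per gene cannot separate the circular RNA from the linear mRNA, so the knockdown itself was not checked here. Leaving out knockdown replicate 1 took genes past an adjusted p of 0.05 from 35 higher and 88 lower to 649 higher and 2771 lower. Values without it are therefore also given below for GYG1, GYS1 and UGP2. The other tested members were not called without it. Their log2 fold changes were then -0.11 for GYG2, -0.15 for GBE1, 0.08 for PGM1, 0.07 for PYGL and 0.07 for PYGB. For PGM1, PYGL and PYGB this is the other direction from the fit with all libraries. The keratins KRT8 and KRT18 with EPCAM summed to at least 4799 TPM in every library, but EPCAM itself stayed under 1 TPM in all libraries. The 10 hepatocyte markers summed to 34.7 to 40.5 TPM after knockdown and 31.0 to 31.8 TPM in the control libraries, most of it from HNF4A at 22.9 to 31.3 TPM, and 4 of them stayed under 1 TPM in all libraries. The 5 fibroblast markers summed to 32.2 to 76.6 TPM after knockdown and 30.0 to 43.8 TPM in the control libraries, with LUM the highest at up to 59.1 TPM. The 4 skeletal muscle markers stayed under 1 TPM in all libraries. The part of these markers in the results was not tested. In such bulk libraries, fewer cells of a kind and less RNA per cell cannot be told apart.

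In the control libraries the 9 genes spanned a wide range of levels. By control mean the order was PYGB, GYS1, UGP2, PGM1, GBE1, PYGL, GYG1, GYG2 and GYS2. PYGB was 4.91 times as abundant as GYS1, the next gene. All neighbours in this order were separated in each of the 3 control libraries except UGP2 and PGM1, whose ranges overlapped. UGP2 was higher than PGM1 in 2 of 3 control libraries and in 1 of 3 knockdown libraries. After knockdown, 1 other pair of neighbours changed places, GYG1 and GYG2.

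**Figure D1:**
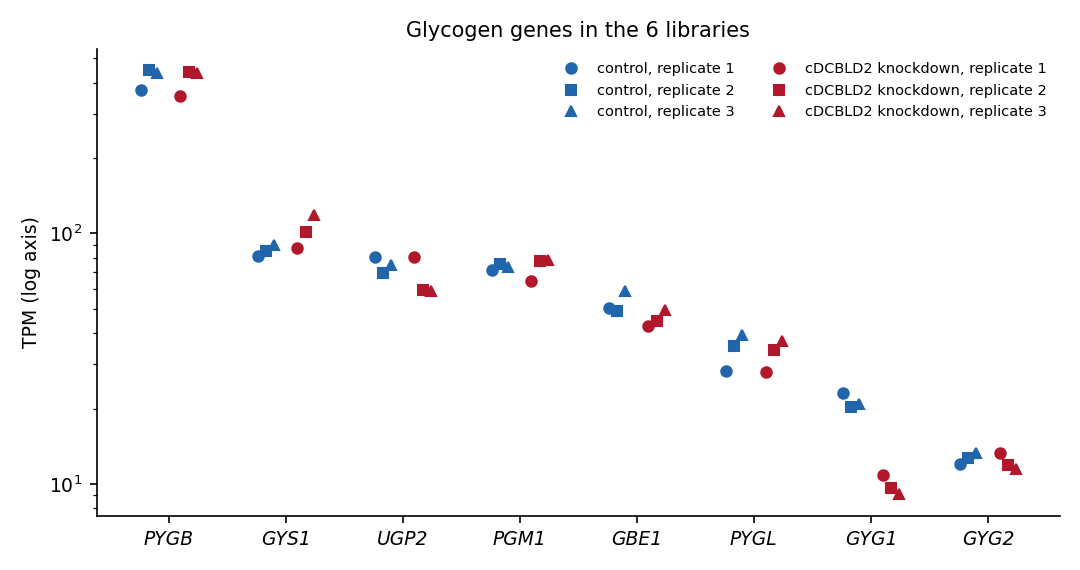
TPM of 8 glycogen genes in each of the 6 libraries on a log axis, ordered by control mean, with control libraries in blue and cDCBLD2 knockdown libraries in red. Marker shapes give the replicate number. The 3 knockdown values of GYG1 lie below its 3 control values, and the groups overlap for the other 7 genes. GYS2, at 0.0618 TPM or less in every library, is not drawn.

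GYG1, which primes glycogen in most tissues, was the member that fell. Following cDCBLD2 knockdown, its mRNA measured 10.8, 9.65 and 9.08 TPM in replicates 1, 2 and 3. In the control replicates it measured 23.0, 20.4 and 20.8 TPM. The groups did not overlap, since the highest knockdown value was 10.8 TPM and the lowest control value 20.4 TPM. The mean was 9.86 ± 0.8999 TPM (SD, n = 3) against 21.4 ± 1.41 TPM (SD, n = 3), or 46.0% of control. By replicate number, the log2 differences were -1.02, -1.005 and -1.12 on log2(TPM + 1). The fitted log2 fold change was -1.05 with a standard error of 0.10, and the adjusted p from limma over 13980 genes was 0.0444. It ranked as the 94th lowest log2 fold change of those genes. The gene lies at chr3:148991341-149027668 on the plus strand of GRCh38.

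The GYG1 values rested on 527 to 637 recovered reads per knockdown library and 1088 to 1170 per control library. Its mean level exceeded that of 51.8% of tested genes, so it was a gene of middling abundance. The size of the fall was similar under other treatments of the data. After the relation of each library's values to transcript GC content was taken out (the GC step), the GYG1 log2 difference was -0.92, with an adjusted p of 0.0341 in limma, and limma-voom, a form of limma for counts, gave -1.02 on the recovered reads (adjusted p = 0.0291). The call was less stable than the size, and its adjusted p lay close to 0.05. Without knockdown replicate 1 it was -1.11 with an adjusted p of 0.0125 in limma. Leaving out knockdown replicate 2 gave -1.03 with an adjusted p of 0.158 in limma, and knockdown replicate 3 gave -0.995 with 0.212. Leaving out control replicates 1, 2 and 3 in turn gave -0.996, -1.08 and -1.06, with limma adjusted p of 0.150, 0.191 and 0.222. In each of these last 5 fits limma called 0 genes of 13980, while between 2161 and 2803 genes had an unadjusted p under 0.05.

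GYG2, the other glycogenin, did not pass the test. It measured 13.3, 11.9 and 11.4 TPM in the knockdown replicates and 12.1, 12.7 and 13.3 TPM in the control replicates. The groups overlapped throughout, with means of 12.2 ± 0.993 and 12.7 ± 0.640 TPM (SD, n = 3 each). GYG2 had a log2 fold change of -0.05 with a standard error of 0.10 (limma adjusted p = 0.758). The difference between replicates of the same number was 0.13, -0.09 and -0.21, so its direction was not shared. Between 300 and 413 reads per library lay behind these values. GYG2 lies at chrX:2828788-2882820 on the plus strand.

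The balance of the glycogenin mRNAs turned over with the GYG1 values. GYG1 made up 65.6%, 61.6% and 61.0% of the summed GYG1 and GYG2 TPM in the control replicates. It made up 44.9%, 44.8% and 44.3% in the knockdown replicates. GYG1 was therefore the more abundant glycogenin mRNA in 3 of 3 control libraries and in 0 of 3 knockdown libraries. The mean share was 62.7% ± 2.52 in the control libraries and 44.6% ± 0.323 after knockdown (SD, n = 3 each). With 3 against 3 libraries, a two-sided exact permutation test of 1 value cannot give a p below 0.1, so shares and ratios are given as values alone.

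**Figure D2:**
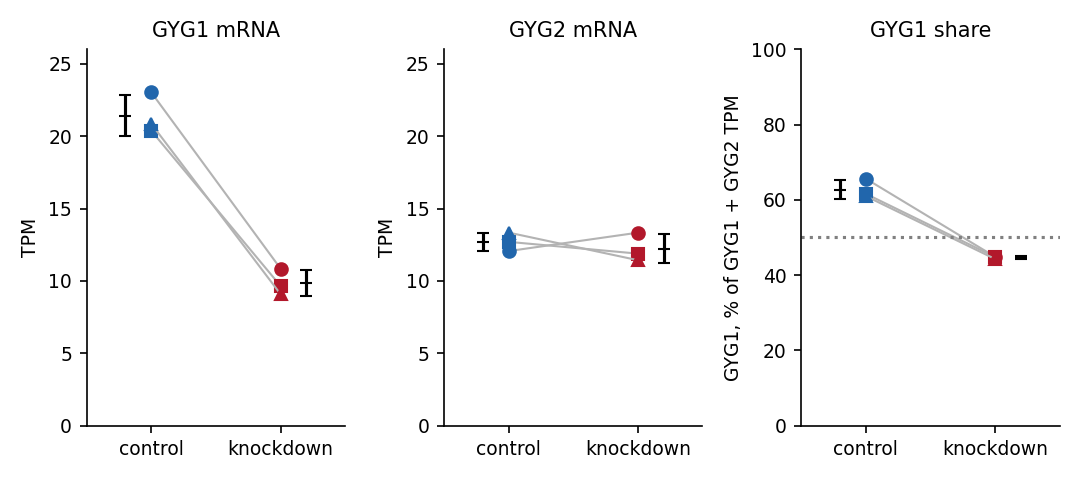
GYG1 TPM, GYG2 TPM and the GYG1 share of their sum (percent) in control (blue) and cDCBLD2 knockdown (red) libraries, with grey lines joining libraries of the same replicate number (circle 1, square 2, triangle 3) and bars showing mean ± SD of 3 libraries. GYG1 falls from 20.4 or more to 10.8 TPM or less, GYG2 stays between 11.4 and 13.3 TPM, and the share crosses the dotted line at equal amounts.

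On TPM and with all libraries, the enzymes that supply the activated sugar did not pass the test without or with the replicate block. This block is a term of the fit that compares libraries of the same replicate number. With it, the limma adjusted p was 0.971 for PGM1 and 0.108 for UGP2. PGM1 measured 64.6, 77.5 and 78.2 TPM after knockdown and 71.4, 75.2 and 73.4 TPM in the control replicates. The control values lay inside the knockdown range, and the log2 fold change was -0.00 with a standard error of 0.09 (limma adjusted p = 0.985). Its exons share 197 bases with ITGB3BP on the other strand, at 4.79 to 10.4 TPM, and whether reads were counted by strand is not given in the sources used here. UGP2 measured 80.5, 59.3 and 59.0 TPM after knockdown and 80.2, 69.3 and 74.7 TPM in the control replicates. Knockdown replicates 2 and 3 lay below all control libraries, while knockdown replicate 1 lay above them.

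The UGP2 difference depended on how the data were treated. Its log2 fold change was -0.18 with a standard error of 0.14 (limma adjusted p = 0.423). After the GC step it was 0.23, in the other direction (adjusted p = 0.129), and with the replicate block added it passed the test there (adjusted p = 0.0243). Without knockdown replicate 1 and without the GC step it was -0.33 (limma adjusted p = 0.0354). At 39.1% GC, the UGP2 transcript had the lowest GC content of the 9 members. Over the 13162 tested genes with a known GC content, Spearman's rho between log2 fold change and GC content was 0.637, a correlation across genes, which are not independent replicates. No direction is therefore given for UGP2. UGP2 lies at chr2:63840940-63891562 on the plus strand and PGM1 at chr1:63593276-63660245 on the plus strand.

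GYS1, which lengthens the chains, stood above most control values but overlapped with them. It measured 87.7, 101 and 119 TPM in the knockdown replicates and 81.5, 84.9 and 90.3 TPM in the control replicates. Knockdown replicate 1 lay below the highest control library, and the other two knockdown libraries lay above all controls. The means were 103 ± 15.7 and 85.6 ± 4.45 TPM (SD, n = 3 each). GYS1 had a log2 fold change of 0.25 with a standard error of 0.12, and the limma adjusted p was 0.230 without the replicate block and 0.0334 with it. By replicate number the differences were 0.10, 0.25 and 0.39. The call was lost with the GC step and the block, at a log2 fold change of 0.15 (limma adjusted p = 0.0951). Without knockdown replicate 1 and without the block it was 0.36 (limma adjusted p = 0.0394). GYS1 lies at chr19:48968125-48993310 on the minus strand.

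GYS2, the liver form of glycogen synthase, was at the floor of detection. It measured 0.0260, 0.0192 and 0.0618 TPM in the knockdown replicates, from 1, 1 and 3 reads. In the control replicates it measured 0.0535, 0 and 0 TPM, from 2, 0 and 0 reads. A floor of 3 reads per library corresponds to 0.0575 to 0.0803 TPM at these depths, so each library was at or under it and no fold change is given. Such floors cover counting error only. GYS2, at chr12:21536189-21604847 on the minus strand, shares 2742 exonic bases with AC010197.2, a gene on the same strand, and 375 with SPX on the other strand. AC010197.2 was not analysed here, and how shared reads were assigned is not given in the sources used here. GYS1, by contrast, reached 81.5 TPM or more in every library.

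The ratio of the synthase to its primer differed between groups. The ratio of GYS1 to GYG1 TPM was 8.08, 10.5 and 13.1 in the knockdown replicates and 3.54, 4.17 and 4.33 in the control replicates. The means were 10.6 ± 2.51 and 4.01 ± 0.418 (SD, n = 3 each), and the groups did not overlap. Most of this difference lay in GYG1, whose log2 fold change was -1.05 against 0.25 for GYS1.

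GBE1, which adds the branches, measured 42.6, 44.7 and 49.7 TPM in the knockdown replicates and 50.4, 48.9 and 58.8 TPM in the control replicates. Only knockdown replicate 3 overlapped with the controls, above control replicate 2. The means were 45.7 ± 3.63 and 52.7 ± 5.34 TPM (SD, n = 3 each). GBE1 had a log2 fold change of -0.20 with a standard error of 0.10, with a limma adjusted p of 0.252 without the block and 0.0315 with it. Its value after the GC step was 0.07, in the other direction (limma adjusted p = 0.783), so no direction is given for GBE1 either. The GBE1 transcript has 43.9% GC. Between 435 and 693 reads per library lay behind it, from a gene at chr3:81489699-81762161 on the minus strand. The ratio of GBE1 to GYS1 was 0.487, 0.441 and 0.418 after knockdown and 0.619, 0.577 and 0.651 in the control replicates, without overlap. It was taken on TPM without the GC step, and the GYS1 transcript has 58.7% GC. After the GC step the log2 fold changes were 0.07 for GBE1 and 0.15 for GYS1, so no direction is given for this ratio.

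The phosphorylases, which break glycogen down, differed by less than the spread between replicates. PYGL measured 28.0, 34.3 and 37.4 TPM in the knockdown replicates and 28.2, 35.5 and 39.2 TPM in the control replicates. Replicate 1 was the lowest library of each group. PYGL had a log2 fold change of -0.04 with a standard error of 0.16 (limma adjusted p = 0.884). PYGL, at chr14:50857891-50944736 on the minus strand, shares 180 exonic bases with an antisense gene, AL358334.3. PYGB, the most abundant of the 9 genes, measured 353, 443 and 438 TPM in the knockdown replicates and 375, 448 and 439 TPM in the control replicates. Replicate 1 was again the lowest of each group. Its log2 fold change was -0.04 with a standard error of 0.12 (limma adjusted p = 0.869).

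PYGB, at chr20:25248069-25298014 on the plus strand, exceeded 97.6% of tested genes in mean level. At 11980 to 20443 reads per library it was the most deeply sampled member. Its log2 fold change after the GC step was -0.13, and it passed the test there only with the replicate block (limma adjusted p = 0.0422). PYGL, the liver form, made up 7.47% ± 0.360 of the summed PYGL and PYGB TPM after knockdown and 7.51% ± 0.617 in the control libraries (SD, n = 3 each). The brain form thus made up most phosphorylase mRNA in both groups. The muscle form PYGM was at 0.352 TPM or less in every library.

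Replicate 1 differed from replicates 2 and 3 in both groups for several members. On log2(TPM + 1), replicate 1 minus the mean of the other two was -0.35 after knockdown and -0.39 in the control libraries for PYGL. For PYGB it was -0.32 and -0.24. For UGP2 it was 0.44 and 0.15, in the opposite direction. For GYG1 it was 0.19 and 0.15, well within the difference between groups. The labels do not say what the replicate numbers stand for, and the part of this shift in the results was not tested.

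**Figure D3:**
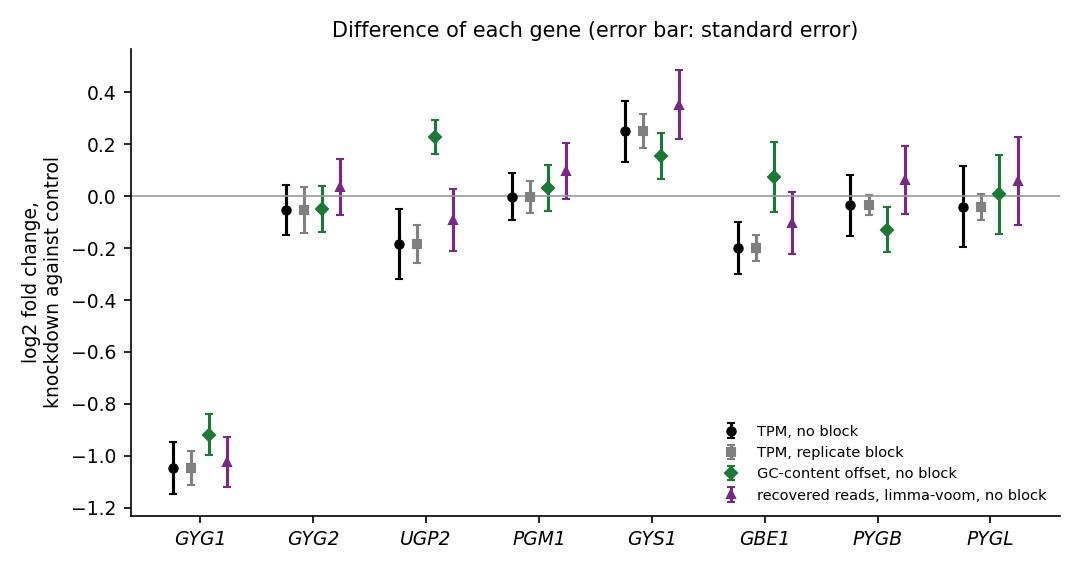
Fitted log2 fold changes (knockdown against control) of the 8 tested members with their standard errors, by 4 treatments: limma on log2(TPM + 1) without and with the replicate block, limma after the GC step, and limma-voom on recovered reads. GYG1 lies between -1.05 and -0.92 in all 4, whereas UGP2 and GBE1 lie below 0 on TPM and above 0 with the GC step.

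Without the replicate block, 1 of 8 tested members (GYG1) had an adjusted p under 0.05 and was lower, and 0 were higher. Of all tested genes 0.629% were called lower and 0.880% in either direction. GYG1 had both an adjusted p under 0.05 and a log2 fold change under -1, as had 0.0787% of tested genes. By log2 fold change alone it ranked as the 94th lowest of 13980 genes. With the block, GYG1 and GBE1 were called lower, beside 25.0% of all genes, and GYS1 higher, beside 9.94%. With the GC step and the block, GYG1 and PYGB were called lower and UGP2 higher, beside 25.0% of all genes called in either direction. GYG1 was the member called in all 3. The groups did not overlap for 1 of 8 members, with knockdown below control. This held for 22.3% of all tested genes, and for 31.9% in either direction. The median log2 fold change was -0.05 for the members and -0.08 for all tested genes. Because the members were chosen from this comparison, nothing is read from these shares.

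The other genes of glycogen metabolism were described from a list of 63 genes by role, of which 50 were tested. Without the block, SLC2A1 rose and PHKB and UGDH fell, and the median log2 fold change was -0.08, as over all genes. With the block, 6 were called higher and 15 lower, beside 9.94% and 25.0% of all tested genes. With the GC step and the block, 8 were called higher and 8 lower, beside 25.0% of all genes in either direction. The groups did not overlap for 5 genes above and 14 below control, beside 22.3% of all genes below and 31.9% in either direction. Named genes of this list other than SLC2A1, PHKB and UGDH were chosen after their values were seen.

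SLC2A1, the glucose transporter GLUT1, brings glucose into the cell. It measured 251, 273 and 343 TPM in the knockdown replicates and 137, 151 and 170 TPM in the control replicates. All knockdown libraries lay above all control libraries, and the log2 fold change was 0.91 with a standard error of 0.14 (limma adjusted p = 0.0495). After the GC step it was 0.88 (adjusted p = 0.0537). SLC2A3, another glucose transporter, measured 6.82, 12.6 and 17.8 TPM after knockdown and 1.32, 4.65 and 7.80 TPM in the control replicates. It was higher within each replicate number, but the groups overlapped, and it was called only with the block (limma adjusted p = 0.00503, against 0.171 without it). Of the 5 tested genes of glucose entry and phosphorylation, these 2 were called higher with the block and 0 lower, beside 9.94% and 25.0% of all tested genes.

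PHKB, the beta subunit of the kinase that activates phosphorylase, measured 34.1, 32.4 and 33.8 TPM in the knockdown replicates. It measured 52.8, 56.0 and 61.0 TPM in the control replicates, without overlap. The log2 fold change was -0.74 with a standard error of 0.08 (limma adjusted p = 0.0444). The GC step gave -0.36 (adjusted p = 0.215, or 0.00814 with the block). PHKA1, an alpha subunit, measured 14.7 to 15.4 TPM after knockdown and 19.6 to 21.8 TPM in the control libraries. It was called lower only with the block (limma adjusted p = 0.00952), beside 25.0% of all tested genes called lower. The other subunits PHKA2, PHKG1 and PHKG2 had log2 fold changes of 0.13, 0.03 and -0.01. On TPM, limma called none of these other subunits without or with the block.

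UGDH, which takes UDP-glucose into UDP-glucuronate and so away from glycogen, measured 442, 436 and 399 TPM in the knockdown replicates. It measured 658, 645 and 664 TPM in the control replicates, without overlap. The log2 fold change was -0.62 with a standard error of 0.06 (limma adjusted p = 0.0444). The GC step gave -0.25 (adjusted p = 0.280, or 0.0268 with the block). UGGT1 and UGGT2, which use UDP-glucose on glycoproteins, were called lower with the block too (limma adjusted p = 0.00669 and 0.0235). With the GC step and the block, UGGT1 kept the call at a log2 fold change of -0.20 (adjusted p = 0.0410), and UGGT2 lost it at -0.06 (adjusted p = 0.693). The GC content of UGDH was 40.8% and that of PHKB 40.6%, both below that of GYG1 at 48.1%.

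**Figure D4:**
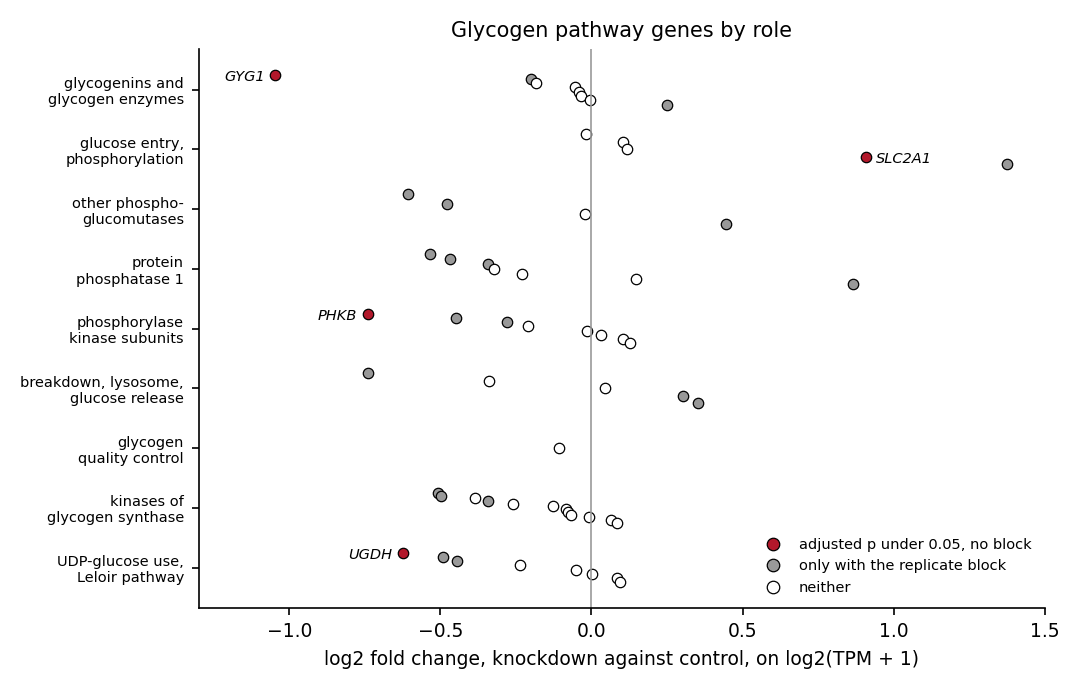
Fitted log2 fold changes (knockdown against control, log2(TPM + 1)) of the 8 tested glycogen genes in the top row and of 50 other pathway genes by role below, each point 1 gene. Red points have an adjusted p under 0.05 in limma without the block, grey points only with it. GYG1 lies at -1.05, SLC2A1 at 0.91, and the 50 other genes spread from -0.74 to 1.37 with calls in both directions.

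Among the phosphatase genes that act on glycogen enzymes, members moved in both directions with the block. PPP1R3C, a subunit that targets protein phosphatase 1 to glycogen, measured 23.5, 40.5 and 56.1 TPM after knockdown and 12.4, 21.6 and 30.6 TPM in the control replicates. The value was higher within each replicate number, although the groups overlapped (log2 fold change 0.87, limma adjusted p = 0.226 without the block and 0.00436 with it). Its targeting relative PPP1R3B and the catalytic subunits PPP1CB and PPP1CC were called lower with the block (limma adjusted p = 0.0146, 0.00674 and 0.00437). Of these 3, PPP1CC kept the call with the GC step and the block (adjusted p = 0.00914), and PPP1R3B and PPP1CB lost it (0.215 and 0.647).

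STBD1, a glycogen-binding protein, and GAA, the lysosomal glucosidase, were called higher with the block (limma adjusted p = 0.00945 and 0.0114), with log2 fold changes of 0.35 and 0.30. Both kept the call with the GC step and the block (adjusted p = 0.00776 and 0.0370). Among the other genes with a PGM symbol, PGM2 and PGM3 were called lower and PGM5 higher with the block (limma adjusted p = 0.00702, 0.0206 and 0.0111). With the GC step and the block, the calls of PGM2 and PGM3 were lost (adjusted p = 0.0550 and 0.0946), PGM5 kept its call (0.00928), and PGM2L1 was called higher (0.0415). Of 12 tested genes for kinases of glycogen synthase or their subunits, GSK3B, PRKAA1 and CSNK2A1 were called lower with the block (limma adjusted p = 0.0172, 0.0101 and 0.0106). In the same fit 0 of them were called higher, and 25.0% of all tested genes were called lower. After the GC step and with the block, PRKAA1 kept the call (adjusted p = 0.0270), GSK3B and CSNK2A1 lost it (0.0579 and 0.342), and PRKAB2 was called higher (0.0184). The 1 tested gene of glycogen quality control, NHLRC1, had a log2 fold change of -0.11 and was not called. G6PC1, the liver enzyme that frees glucose, was listed at 0 in all libraries.

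The genes whose pattern was most like that of GYG1 over the 6 libraries were PMAIP1, RSKR, HSPA9, HIPK1 and EIF2AK4. Pearson's r of log2(TPM + 1) ranged from 0.997 to 0.999 for these genes, which were picked as the highest among 13980 genes. It is given as a description with no p. GYG1 differs between the groups, so any gene lower in all knockdown libraries tends to a high r. PMAIP1, a BH3-only protein of apoptosis, measured 8.08, 7.62 and 7.56 TPM in the knockdown replicates and 11.9, 11.1 and 11.2 TPM in the control replicates. HSPA9, a mitochondrial chaperone, measured 221, 212 and 197 TPM after knockdown and 338, 309 and 307 TPM in the control replicates. All 5 had a smaller difference than GYG1, with log2 fold changes from -0.79 for HIPK1 to -0.36 for RSKR.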

How the data were processed

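PolyA-Seq of HCCLM3-SR cells gave 3 cDCBLD2 knockdown and 3 control libraries, grouped by their labels. The authors deposited TPM per gene, and each library sums to 1000000. The submitters' processing notes name fastp 0.20.1, HISAT2 2.1.0, StringTie 2.0 and hg38. The annotation, strand and multimapping settings are not given in the sources used here. The members and gene lists were chosen with earlier results of these data known.

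For genes averaging at least 1 TPM, log2(TPM + 1) was fitted with limma 3.58.1 (R 4.3.3, mean-variance trend, Benjamini-Hochberg adjustment over 13980 genes). This scale understates changes of low genes. Calls used an adjusted p under 0.05. The rule for named genes took all members, DCBLD2, each other pathway gene called without the block, and the 5 genes with the highest Pearson r with GYG1. Other pathway genes named were chosen after their values were seen. Results for some further genes of the pathway list are not reported here.

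The labels give both groups replicate numbers 1 to 3. Deviations of same-numbered libraries from their group means correlated at 0.560, 0.343 and 0.362. Between libraries of different numbers, the largest correlation was -0.376 for replicate 1 and 0.247 for replicates 2 and 3. The numbers were taken to pair the libraries, a choice made from these same data. Fits with the replicate block are given beside those without. What the numbers stand for is not in the labels.

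Reads were recovered from the ratios of TPM values between libraries. Of the 17285 genes above 0 in all libraries, 100.0% came out whole within 0.01 read, against 0.0926% after the library factors were moved by up to 10%. Limma-voom was run on genes with at least 10 reads in 3 libraries. GC content came from GENCODE release 29 for 94.1% of tested genes, and its trend was removed per library by loess (span 0.5). Gene positions and transcripts are from that release (GRCh38), and the authors may have used another. Scripts ran in Python 3.11.15 with numpy 2.4.6, pandas 2.3.3, numba 0.67.0 and matplotlib 3.10.9.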

Additional observations from a re-analysis of the deposited data

How the results depend on the processing

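The number of members past an adjusted p of 0.05 in limma was 1 as reported, and 1 with upper-quartile scaling, a pseudocount of 0.1, a filter of at least 1 TPM in 3 libraries, the GC-content offset or limma-voom on recovered reads. It was 3 with the replicate block, 3 with the GC-content offset and the replicate block, 2 with limma-voom and the replicate block, and 0 with no filter on low values, where limma called 3 genes higher and 1 lower of 25278 and 4160 had an unadjusted p under 0.05. Leaving out 1 library at a time gave 0 to 3. For the other pathway genes the number was 3 as reported, 21 with the replicate block, 16 with the GC-content offset and the replicate block, 28 with limma-voom and the replicate block, 0 with no filter and 0 with the GC-content offset, where limma called 3 genes higher and 2 lower of 13162 and 2782 had an unadjusted p under 0.05. Leaving out 1 library at a time gave 0 to 17. Over all genes, the replicate block called 1390 higher and 3501 lower of 13980. The GC-content offset with the block called 1519 higher and 1777 lower of 13162. Limma-voom with the block called 2627 higher and 3081 lower of 15018. The counts of members and pathway genes rose beside these, and nothing is read from them. The UGP2 log2 fold change turned from -0.18 to 0.23, past the threshold, with the GC-content offset and the replicate block. The cause of these changes was not tested. Over 15 alternatives GYG1 stayed between -1.11 and -0.92 and GYS1 between 0.14 and 0.36, with no change of direction, and GYG1 passed the threshold in 9. It was lost with no filter (adjusted p = 0.0598) and in 5 fits that left out 1 library. The direction changed under 7 alternatives for PGM1, 7 for PYGL, 5 for PYGB, 3 for GYG2, 2 for GBE1 and 2 for UGP2. On TPM, the replicate block added GYS1 and GBE1 and changed no other call of a member, and limma-voom with the block called GYG1 and GYS1. TPM and recovered reads rest on 1 line and 3 libraries a group, and GYS2 could not be compared at this depth.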
